A study of Oryza sativa with 10 samples.

Results

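Abscisic acid (ABA) is the plant hormone of drought and salt stress, and its amount depends on synthesis from carotenoids and on breakdown. Zeaxanthin epoxidase (ZEP) makes the epoxidised carotenoids that serve as precursors. The 9-cis-epoxycarotenoid dioxygenases (NCED) cleave such carotenoids, a step regarded as limiting for ABA synthesis under stress. The ABA 8′-hydroxylases (ABA8ox), which are cytochrome P450 enzymes of the CYP707A family, start the main route of ABA breakdown. The genes described here were chosen by their identifiers: ZEP (Os04g0448900), 4 NCED genes (Os02g0704000, Os03g0645900, Os07g0154100 and Os12g0617400), ABA8ox1 (Os02g0703600), ABA8ox2 (Os08g0472800) and ABA8ox3 (Os09g0457100). They are 8 of the 38978 genes counted, 5 for synthesis and 3 for breakdown, and all 8 passed the filter on low counts. The NCED genes carry no number in their names here and are given by identifier.

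RNA sequencing of rice (Oryza sativa) root compared a line labelled salt tolerant (S13) with a line labelled salt susceptible (S3). Seedlings were raised for 30 days without added salt and then spent 12 days in culture solution with NaCl at 140 mM (salt) or at 0 mM (control), and were 42 days old at sampling. The groups were S13 salt (n = 3), S13 control (n = 2), S3 salt (n = 3) and S3 control (n = 2), 10 libraries in all. The labels do not give the plants behind each library, so the p-values rest on library-to-library spread that may be technical. In bulk root RNA, fewer cells of a type and less RNA per cell cannot be told apart.

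The libraries held 22938524 to 25703942 counts. The nuclear identifiers are not paired with names in the sources used here, so no nuclear root marker was checked. Plastid photosystem genes that the files name were taken as markers of green tissue. Of 21 such genes fixed, 15 were found, and none of the 15 was at 0 in any library. Their summed level was 117 to 258 CPM in S13 salt libraries and 92.8 to 212 CPM in S13 controls, and 229 to 377 CPM in S3 salt libraries and 128 to 154 CPM in S3 controls. Of the 15, 6 were called higher and 2 lower under salt in S13, where 12.8% of all genes tested were called higher and 14.2% lower. In S3, 11 were called higher and 1 lower, against 14.4% and 18.4% of all genes tested. The part of these markers in the results on the abscisic acid genes was not tested. CPM here are read counts scaled by library total and TMM factor, and TPM are counts per kb of exon scaled to the same total in each library. The 10 most abundant genes held 10.1% to 14.7% of counts in salt libraries and at most 8.17% in controls, and among the salt libraries of each line the second had the highest share.

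The gene models of the authors' files, on IRGSP-1.0, differed between the families. Each of the 4 NCED genes was a single exon block, of 2078, 2060, 2144 and 1475 bases for Os02g0704000 (chromosome 2, 29026099 to 29028176), Os03g0645900 (chromosome 3, 24959201 to 24961260), Os07g0154100 (chromosome 7, 2870686 to 2872829) and Os12g0617400 (chromosome 12, 26269318 to 26270792). ZEP had 16 exon blocks (chromosome 4, 22369763 to 22376615). ABA8ox1 had 4 (chromosome 2, 28995717 to 28998452), ABA8ox2 had 9 (chromosome 8, 23288613 to 23294162) and ABA8ox3 had 8 (chromosome 9, 17252034 to 17255420). ABA8ox1 and the NCED gene Os02g0704000 lie on the same chromosome with a gap of 27646 bases and 2 other genes between them.

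A gene on the opposite strand shared exon bases with 7 of the 8 members, all but ZEP, whereas 28.7% of all genes have such a partner. The shared bases were 48.1% of the exon bases of Os12g0617400 at the least and 85.3% of those of ABA8ox1 at the most. The partner's counts over all libraries were 74.4% of the member's for ABA8ox2, 80.9% for Os12g0617400, 85.0% for ABA8ox3 and between 90.7% and 98.5% for the other 4. The strand setting of the counting is not stated, so the level of each of these 7 members is that of its locus, and sense and antisense RNA cannot be told apart. For Os02g0704000, Os03g0645900 and Os07g0154100 the partner lay wholly within the member, and the member's count less the partner's was taken as an estimate of the reads outside the partner. It assumes that each read of the partner was also counted for the member, which was not tested.

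**Figure D1:**
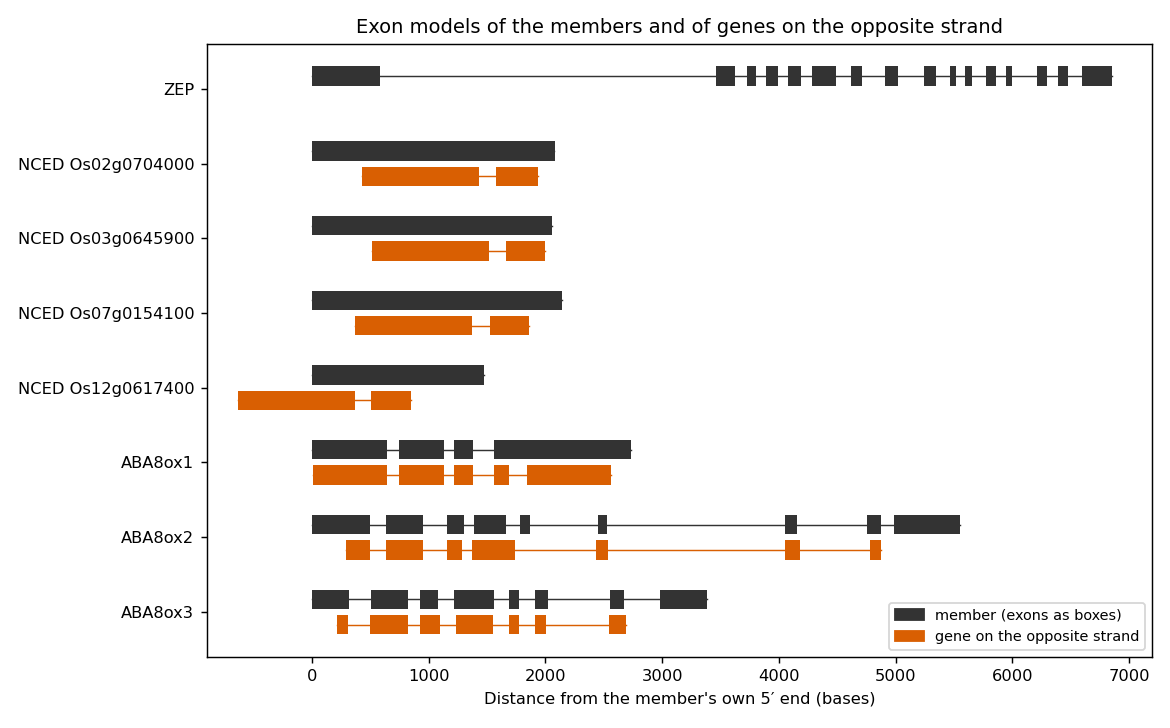
Exon models of the 8 members (dark) and of the genes on the opposite strand that share exon bases with them (orange), drawn to scale from each member's own 5′ end, in bases. ZEP has no such partner; the partners of 3 NCED genes lie wholly inside the member's single exon.

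Salt was followed first in the synthesis genes. The NCED gene Os07g0154100 had the largest change of the 8 members in both lines and rose 8.70-fold in S13 and 14.8-fold in S3. In S3 the NCED gene Os03g0645900 rose too, 4.64-fold. The NCED gene Os02g0704000 went the other way and was called lower in both lines. That gene had few counts and passed the filter on low counts through its control libraries. ZEP and the NCED gene Os12g0617400 did not pass the test in either line.

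Os07g0154100 was at 165, 657 and 105 CPM in S13 salt libraries, against 44.3 and 26.7 CPM in S13 controls. In S3 it was at 175, 564 and 231 CPM in salt libraries, against 24.9 and 18.8 CPM in controls. Every salt library lay above both controls of its line, and the second salt library was the highest in each line. The log2 fold change was 3.12 ± 0.81 (SE) in S13 and 3.89 ± 0.85 (SE) in S3 (adjusted p = 0.0186 and 0.00723, quasi-likelihood test of edgeR, Benjamini-Hochberg adjustment over 28189 genes). Its size depended on the scaling. Scaled by library totals alone, it was 2.32 in S13 and 3.11 in S3, and both passed (edgeR adjusted p = 0.0214 and 0.00567). Without the second S13 salt library the log2 fold change in S13 was 1.92, and without the second S3 salt library that in S3 was 3.22; both still passed (edgeR adjusted p = 0.0246 and 0.0213). The count less that of the opposite-strand gene was 4.07% to 8.83% of the gene's count, and under the assumption above its log2 fold changes were 2.57 in S13 and 4.27 in S3 (edgeR adjusted p = 0.0250 and 0.00375).

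Os03g0645900 was at 27.4, 46.6 and 14.7 CPM in S13 salt libraries, against 10.9 and 14.2 CPM in S13 controls. The groups did not overlap, but the lowest salt library lay just above the higher control. In S3 the levels were 16.9, 42.3 and 29.1 CPM in salt libraries and 6.05 and 6.63 CPM in controls, and the groups were well apart. The log2 fold change was 1.23 ± 0.49 (SE) in S13, which was not called (edgeR adjusted p = 0.0817), and 2.21 ± 0.51 (SE) in S3, which was (edgeR adjusted p = 0.00926). The difference between the lines' responses was -0.98 ± 0.67 (SE, S13 minus S3) and did not pass (edgeR adjusted p = 0.690), so the line in which the gene was called is not shown to respond more. In S13 the gene was called by DESeq2 (adjusted p = 0.0381) and, with edgeR, without the third S13 salt library (adjusted p = 0.0267). It was not called in S13 without the second S13 salt library, at a log2 fold change of 0.75, or with library totals, at 0.48 (edgeR adjusted p = 0.408). Its count less that of the opposite-strand gene had a log2 fold change of 1.08 in S13, which was not called, and 2.73 in S3, which was (edgeR adjusted p = 0.245 and 0.0189).

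Os02g0704000 had the lowest level of the 8 members in each group. It had 11, 3 and 10 counts in S13 salt libraries, against 52 and 45 counts in S13 controls, or 0.484, 0.173 and 0.505 CPM against 1.59 and 1.38 CPM. In S3 it had 7, 9 and 5 counts in salt libraries (0.329, 0.500 and 0.242 CPM), against 58 and 46 counts in controls (1.77 and 1.53 CPM). Each salt library was below both controls of its line, and the lowest salt library stood at 3 counts, the number set as the floor for a library. The gene passed the filter on low counts through its control libraries, the groups in which it was high. The log2 fold change was -1.90 ± 0.55 (SE) in S13 and -2.21 ± 0.56 (SE) in S3 (edgeR adjusted p = 0.0281 and 0.0135), a level 3.74-fold and 4.61-fold lower under salt. In S13 it no longer passed in a fit of the S13 libraries alone (edgeR adjusted p = 0.0616) and, without the second salt library of both lines, missed the threshold (edgeR adjusted p = 0.0502). Less the count of the opposite-strand gene, 0 to 8 counts a library were left, too few for the filter, so the fall was not tested on them in either line.

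Os12g0617400 was at 12.2, 3.99 and 6.11 CPM in S13 salt libraries, against 4.86 and 6.14 CPM in S13 controls, and the groups overlapped. In S3 it was at 12.3, 6.72 and 9.47 CPM in salt libraries, against 6.17 and 6.23 CPM in controls, with no overlap. Its lowest salt library in each line was the second one, where the NCED gene Os07g0154100 was highest. The log2 fold changes of 0.44 ± 0.45 (SE) in S13 and 0.62 ± 0.45 (SE) in S3 did not pass (edgeR adjusted p = 0.488 and 0.312), with 95% intervals from -0.55 to 1.43 and from -0.38 to 1.61.

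ZEP was at 43.7, 48.0 and 30.3 CPM in S13 salt libraries, against 53.2 and 44.1 CPM in S13 controls. In S3 it was at 43.7, 45.4 and 26.5 CPM in salt libraries and at 33.9 and 49.8 CPM in controls. The groups overlapped in both lines, and the third salt library was the lowest of each line. The log2 fold change was -0.26 ± 0.31 (SE) in S13 and -0.12 ± 0.31 (SE) in S3 (edgeR adjusted p = 0.561 and 0.799), with 95% intervals from -0.95 to 0.43 and from -0.81 to 0.57. The level of ZEP relative to all counts depended on the scaling: scaled by library totals alone, its log2 fold change was -0.99 in S13 (edgeR adjusted p = 0.0269) and -0.83 in S3 (edgeR adjusted p = 0.0514), while the median of all genes was then -0.76 in S13 and -0.77 in S3.

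**Figure D2:**
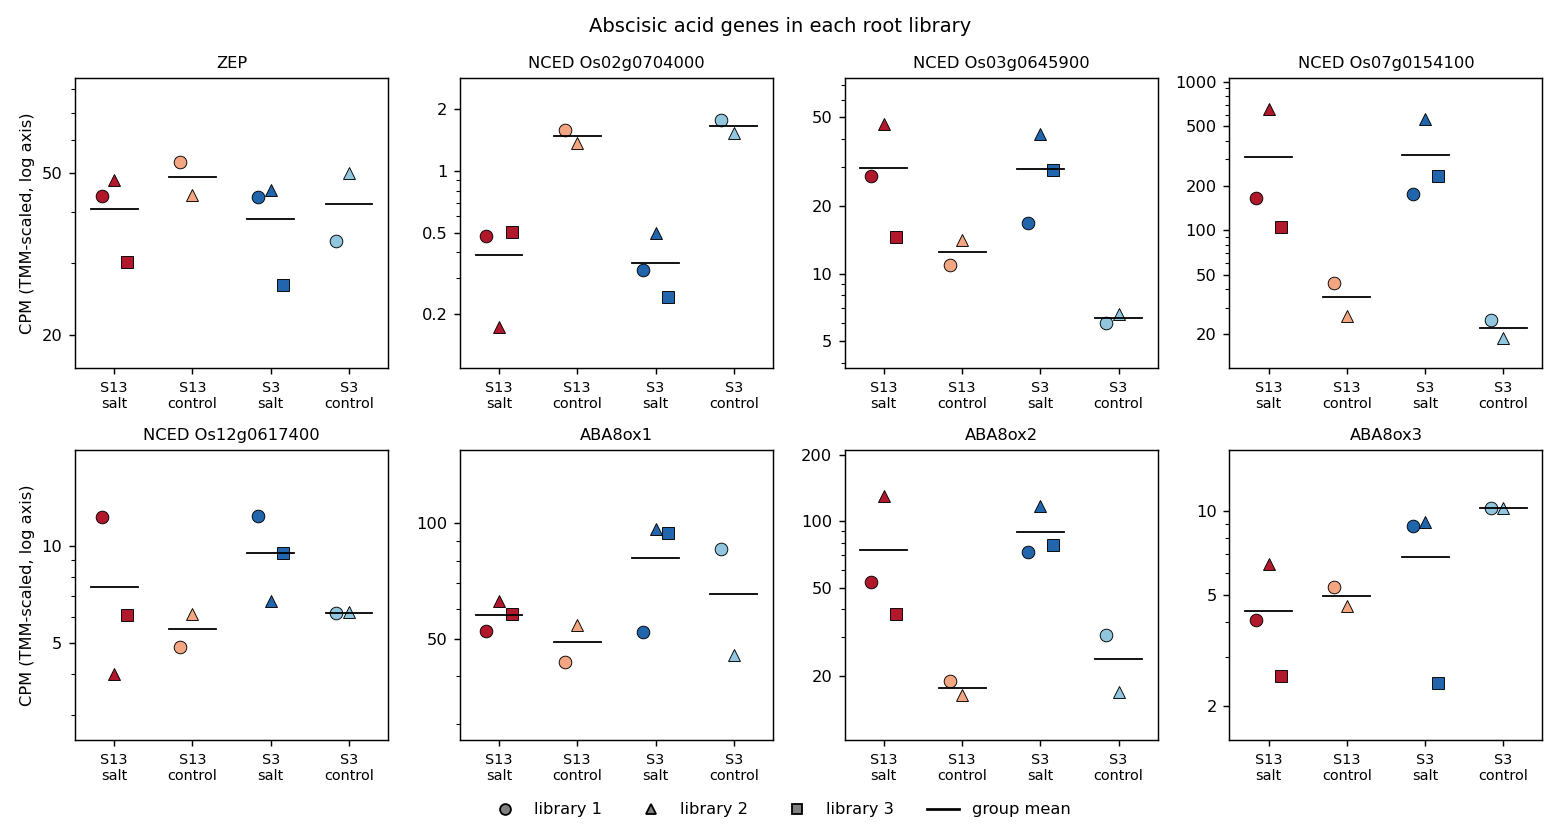
Level of each member in each of the 10 libraries, in TMM-scaled CPM on a log axis; symbols mark the library number within a group and lines the group means. Os07g0154100, Os03g0645900 and ABA8ox2 lie higher and Os02g0704000 lower in salt libraries than in the controls of the same line, without overlap, and Os03g0645900 in S13 was not called.

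Among the breakdown genes, ABA8ox2 rose under salt in both lines, and the other pair did not pass the test. It was at 53.0, 131 and 37.9 CPM in S13 salt libraries, against 18.9 and 16.3 CPM in S13 controls, and at 72.7, 118 and 77.8 CPM in S3 salt libraries, against 30.7 and 16.9 CPM in S3 controls. No salt library overlapped the controls of its line, and the second salt library was again the highest. The rise was 4.20-fold in S13 and 3.76-fold in S3, or log2 fold changes of 2.07 ± 0.52 (SE) and 1.91 ± 0.51 (SE) (edgeR adjusted p = 0.0160 and 0.0178). The difference between them was 0.16, with a 95% interval from -1.33 to 1.65 on the log2 scale. Without the second S13 salt library the value in S13 was 1.37 and still passed (edgeR adjusted p = 0.0186). In S3 the gene missed the threshold without the second S3 salt library (edgeR adjusted p = 0.0545) and when scaled by library totals alone (log2 fold change 1.16, edgeR adjusted p = 0.0599).

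ABA8ox1 and ABA8ox3 did not pass the test in either line. ABA8ox1 was at 52.5, 63.0 and 58.0 CPM in S13 salt libraries and 43.6 and 54.5 CPM in S13 controls, and at 52.3, 96.6 and 94.4 CPM in S3 salt libraries and 85.8 and 45.5 CPM in S3 controls. Its groups overlapped in both lines. The log2 fold changes were 0.24 (95% interval -0.51 to 0.98) in S13 and 0.30 (-0.44 to 1.05) in S3, and with library totals they were -0.51 and -0.44, which did not pass either. ABA8ox3 was at 4.09, 6.48 and 2.58 CPM in S13 salt libraries and 5.35 and 4.55 CPM in S13 controls. In S3 it was at 8.87, 9.17 and 2.42 CPM in salt libraries and 10.3 and 10.2 CPM in controls. The third salt library was the lowest of each line, and in S3 every salt library was below both controls. The log2 fold changes of ABA8ox3 were -0.18 (95% interval -1.35 to 0.99) and -0.59 (-1.74 to 0.56).

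In S13, salt was followed by a higher level for 2 of the 8 members and a lower level for 1, while 27.1% of all genes tested were called (12.8% higher and 14.2% lower). In S3, 3 members were higher and 1 lower, where 32.8% of all genes were called (14.4% higher and 18.4% lower). Groups did not overlap for 4 members in S13 and 6 in S3, against 57.5% and 61.7% of all genes, so these counts are not read as particular to ABA genes. The median log2 fold change of the members was 0.34 in S13 and 0.46 in S3, and that of all genes -0.03 and -0.06. The 3 members called in both lines, Os07g0154100, ABA8ox2 and Os02g0704000, had the same direction in both. The share of all genes called in both lines was not counted, so this is not read as particular to the members. The lines share no library, but both contrasts came from 1 fit with a shared estimate of the spread and 1 scaling. These calls rest on both controls of a line. A fit without 1 control library leaves 1 library in that group, and most or all members called in the line then lost their calls. Calls over all genes fell as well, so the loss is not read as particular to the members. Without the first or the second control, Os07g0154100 had log2 fold changes of 3.53 and 2.80 in S13 and 4.10 and 3.70 in S3. Those of ABA8ox2 were 2.18 and 1.96 in S13 and 2.40 and 1.54 in S3. The log2 fold changes of the called members kept their sign in each of these fits.

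**Figure D3:**
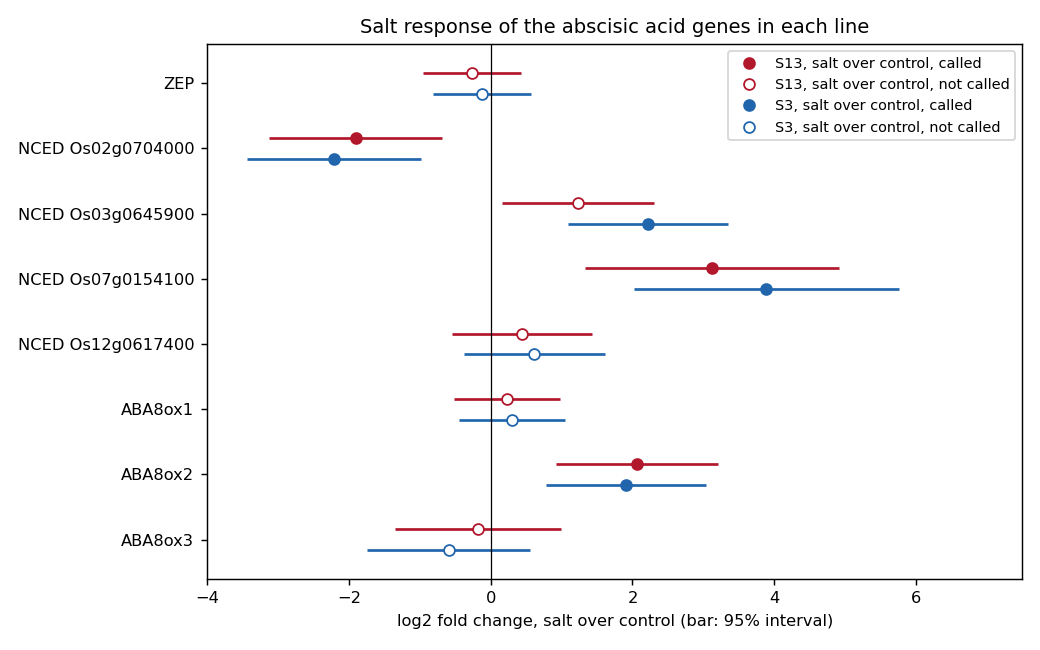
Log2 fold change, salt over control, of each member in S13 (red) and S3 (blue), with 95% intervals from the edgeR fit; filled points were called at an adjusted p under 0.05. Os07g0154100 lies at 3.12 and 3.89, ABA8ox2 at 2.07 and 1.91 and Os02g0704000 at -1.90 and -2.21.

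TPM, which puts genes of unequal length on 1 scale, was used to order the members within a group. The order of the members differed between salt and control libraries. Under salt Os07g0154100 came first in both lines, with 127 ± 113 TPM in S13 and 141 ± 76.4 TPM in S3 (SD, n = 3 each). It was followed by ABA8ox2 with 30.1 ± 17.8 and 39.0 ± 6.53 TPM and ABA8ox1 with 22.3 ± 1.56 and 32.8 ± 8.03 TPM in the salt libraries of S13 and S3 (SD, n = 3 each). In S13 salt libraries every neighbour in the order overlapped the next down to ABA8ox3, and in S3 salt libraries Os07g0154100 stood clear of ABA8ox2. In controls ZEP and ABA8ox1 came first, with 35.2 ± 3.01 and 33.8 ± 6.87 TPM in S13 and 30.2 ± 6.87 and 45.6 ± 21.5 TPM in S3 (SD, n = 2 each), and overlapped each other. Os07g0154100 came next in S13 controls, with 26.7 ± 8.21 TPM, where it overlapped ABA8ox1, and stood lower in the order of S3 controls, with 16.7 ± 3.97 TPM, where it overlapped ABA8ox2 (SD, n = 2 each). Next in the salt order stood ZEP (16.8 ± 4.87 TPM in S13 and 16.7 ± 4.74 TPM in S3) and Os03g0645900 (13.1 ± 6.49 and 13.5 ± 4.51 TPM), which overlapped each other in both lines (SD, n = 3 each). Below these in both lines under salt were Os12g0617400 (4.92 TPM in S13 and 6.42 TPM in S3), ABA8ox3 (2.18 and 3.62 TPM) and Os02g0704000 (0.176 and 0.165 TPM). In S13 controls the same order held for Os03g0645900 (9.96 TPM), Os12g0617400 (6.09 TPM), ABA8ox3 (4.38 TPM) and Os02g0704000 (1.16 TPM). In S3 controls ABA8ox3 (9.13 TPM) and Os12g0617400 (6.86 TPM) stood above Os03g0645900 (5.01 TPM), with Os02g0704000 (1.30 TPM) again lowest, and none of these neighbours overlapped in either line's controls.

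Added up, the 4 NCED genes held 107, 277 and 51.6 TPM in S13 salt libraries, against 47.2 and 40.6 TPM in S13 controls, and 106, 250 and 126 TPM in S3 salt libraries, against 32.9 and 26.9 TPM in S3 controls. The sums in salt libraries lay above those of both controls in each line, in S13 by a small margin for the third salt library. Os07g0154100 made up 77.8% to 92.3% of the NCED sum in the salt libraries of both lines and 51.5% to 68.8% in the controls. The 3 ABA8ox genes together held 52.5, 74.7 and 36.8 TPM in S13 salt libraries, against 47.1 and 55.3 TPM in S13 controls, and 64.6, 86.3 and 75.3 TPM in S3 salt libraries, against 93.7 and 51.4 TPM in S3 controls. These sums overlapped between salt and control in both lines, but this depended on the scale. TPM carries no TMM factor; in TMM-scaled CPM per kb the ABA8ox sums were 48.5, 89.6 and 43.1 in S13 salt libraries against 29.9 and 32.9 in S13 controls, and 59.96, 99.3 and 76.5 in S3 salt libraries against 55.8 and 32.5 in S3 controls. On that scale no salt library overlapped the controls of its line. The NCED sums did not overlap on either scale, with 60.5 to 332 TMM-scaled CPM per kb in S13 salt libraries against 24.2 and 30.0 in S13 controls, and 98.2 to 288 in S3 salt libraries against 16.97 and 19.6 in S3 controls. Within the ABA8ox sums ABA8ox1 was the most abundant gene in all 4 control libraries, and ABA8ox2 in the first and second salt libraries of each line, with ABA8ox1 in the third. Sums are descriptions and were not tested.

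**Figure D4:**
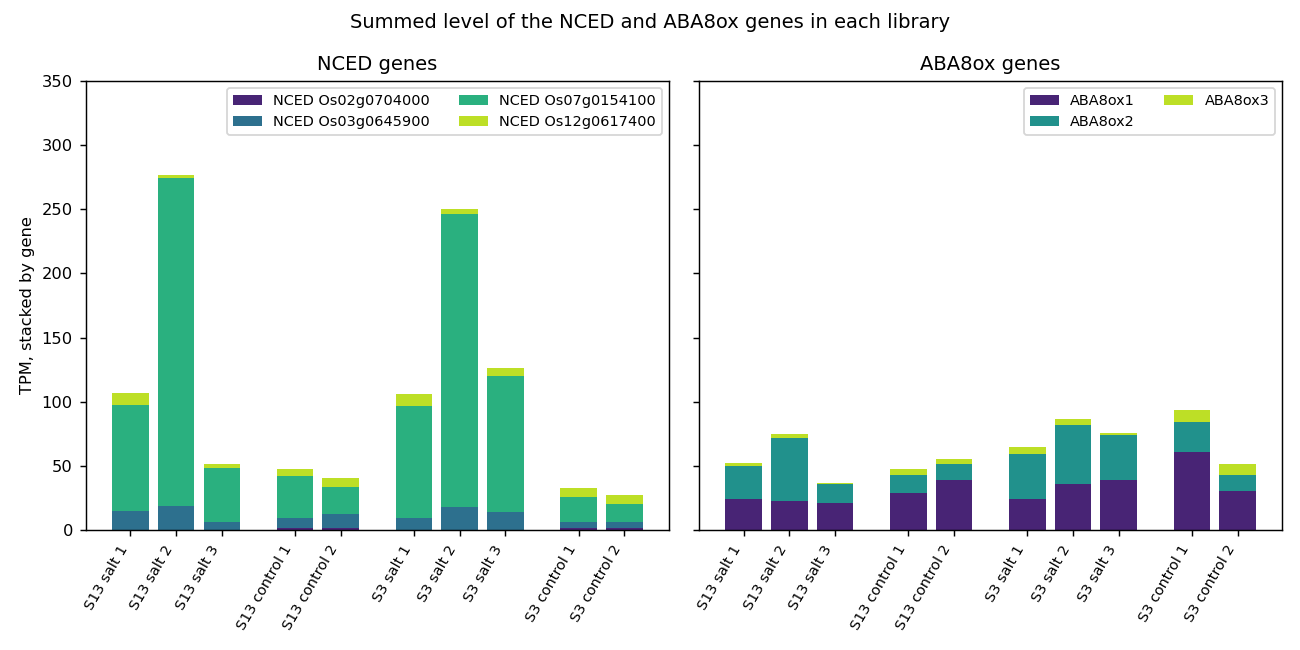
Summed TPM of the 4 NCED genes (left) and the 3 ABA8ox genes (right) in each library, stacked by gene. The NCED sum reaches 277 TPM in the second S13 salt library and 250 TPM in the second S3 salt library, most of it from Os07g0154100, whereas the ABA8ox sum lies between 36.8 and 93.7 TPM in all 10 libraries and overlaps between salt and control on this scale, though not in TMM-scaled CPM.

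Whether the lines differed at these genes was asked with and without salt. No member passed between S13 and S3 in either condition, by edgeR or by DESeq2, and none had an unadjusted edgeR p under 0.05; of all genes 1.42% were called in controls (0.756% higher and 0.667% lower in S13) and 3.57% under salt (1.8% higher and 1.77% lower in S13). In controls the groups did not overlap for 4 members, against 47.0% of all genes. These were Os03g0645900 (12.6 ± 2.34 CPM in S13 and 6.34 ± 0.415 CPM in S3), Os07g0154100 (35.5 ± 12.5 and 21.9 ± 4.28 CPM), Os12g0617400 (5.50 ± 0.908 and 6.20 ± 0.0457 CPM) and ABA8ox3 (4.95 ± 0.561 and 10.3 ± 0.0410 CPM; SD, n = 2 each). The log2 fold changes, S13 over S3, were 0.99 for Os03g0645900 (95% interval -0.16 to 2.13) and -1.05 for ABA8ox3 (-2.34 to 0.23), so that differences of 2-fold were within these intervals. Under salt the groups of the lines overlapped for all 8 members, where 17.5% of all genes did not overlap. The log2 fold change under salt was -0.07 for Os07g0154100 (95% interval -1.46 to 1.33), 0.01 for Os03g0645900 (-0.91 to 0.93), -0.49 for ABA8ox1 (-1.15 to 0.18) and -0.64 for ABA8ox3 (-1.70 to 0.42).

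The difference of the salt responses, S13 minus S3, was not called for any member by edgeR or DESeq2, and no member had an unadjusted edgeR p under 0.05. Over all genes the edgeR test called 0% and 2435 genes had an unadjusted p under 0.05, while DESeq2 called 142 genes. The largest differences among the members were those of Os03g0645900 (-0.98, 95% interval -2.45 to 0.49) and Os07g0154100 (-0.77, -2.99 to 1.46). For ABA8ox2 and ZEP the differences were 0.16 (-1.33 to 1.65) and -0.14 (-1.12 to 0.84). The intervals span more than 2-fold in at least 1 direction for each member named, so like responses in the lines are not shown by these values.

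The genes most like Os07g0154100, the NCED gene with the highest mean CPM, were searched among 28180 genes by Pearson's r of log2 CPM over the 10 libraries. They were Os12g0560900 and Os04g0679500, both with r = 0.993, and neither is named in the sources used here. Their log2 fold changes were 1.99 and 2.98 in S13 and 2.62 and 3.29 in S3, and they were called in both lines (edgeR adjusted p from 0.00528 to 0.0182). Both genes were picked for likeness over these same libraries, so their calls are no separate result. The points share the split into salt and control libraries, and 1144 genes had r above 0.9 with Os07g0154100. For ABA8ox1, the breakdown gene with the highest mean CPM, no gene had r above 0.9, and the highest value was 0.899.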

How the data were processed

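Total RNA labelled root was sequenced in 10 libraries. The authors deposited raw read counts, not normalized, for 38978 genes, with exon positions, per the file headers. The submitters' processing notes name FastQC, Trimmomatic, HISAT2, featureCounts, DESeq2 and build IRGSP-1.0; the sources used here give no versions or settings.

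The members, lists and tests were chosen with earlier results of these data known. Analysis used R 4.3.3 and edgeR 4.0.16. After filterByExpr 28189 genes remained, and 1 quasi-likelihood fit without a block held all 10 libraries and 4 groups. TMM factors were 0.729 to 0.922 in salt libraries and 1.31 to 1.42 in controls, so they split by treatment without overlap. With library totals in place of these factors, every member had a lower log2 fold change for salt in both lines. A gene was called in any of 5 contrasts when its Benjamini-Hochberg adjusted p over all genes tested was under 0.05. The fit was tested on simulated data with known changes. TPM was computed from counts and exon length. The floor of 3 counts was 0.117 to 0.131 CPM before TMM scaling and covers counting error only. Intervals are 95% intervals of the fit.

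Alternatives were DESeq2 1.42.0, limma-voom (limma 3.58.1), size factors of DESeq2, library totals, no filter, a minimum of 5 CPM in 2 libraries or more, fits of the compared groups, a replicate block, 1 gene per overlapping set (0.5 of the shorter gene or more) and leaving out each library. Fits without the second salt library of both lines and on counts less those of an opposite-strand gene lying within a member were chosen after seeing the data. Named genes are the 8 members and, for the NCED and the ABA8ox gene of highest mean CPM, the 2 genes of highest correlation (log2 CPM with prior count 2); those for ABA8ox1 are given by their r only. The gene name table (assembly ASM3414082v1) annotates 0 of the 8 members and 1 of 37849 nuclear identifiers, so a list of 20 further identifiers of the pathway, of which it annotates 0, was left out.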

Additional observations from a re-analysis of the deposited data

How the results depend on the processing

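Between the lines and in the difference of responses, 0 members were called under every alternative run. For salt, leaving out 1 library at a time gave 0 to 4 members called in S13 and 0 to 4 in S3, with 0 only without a control library of that line. The other alternatives gave 2 to 4 in S13 and 3 to 4 in S3. Of the members' fold changes under alternatives, 753 kept their direction and side of the threshold, 18 lost the call, 4 gained it and 46 changed sign; the cause was not tested. None of those that changed sign was called. Os02g0704000 had no value with the minimum of 5 CPM or on counts less those of the opposite-strand gene, since it failed those filters. It also failed the filter in the fit of the salt libraries alone, so it was not tested between lines there. Over all genes, the same-numbered libraries of different groups deviated together weakly at most (r from -0.135 to 0.199 over 13 pairs, 1 above 0.1). Deviations from the mean in a group of 2 libraries mirror each other, so the 13 values of r are not separate checks. The highest of these r was that of the second salt libraries of S13 and S3, which were both highest for Os07g0154100 and ABA8ox2. A pair of unlike number, S13 salt library 1 and S3 salt library 3, reached 0.239. With the replicate block, 3 members were called in S13 and 4 in S3: in S13 Os02g0704000 lost its call at a log2 fold change of -1.92 (edgeR adjusted p = 0.0715) and Os03g0645900 gained one (edgeR adjusted p = 0.0495). Also with the block, ABA8ox3 was at 0.22 for salt in S13, ZEP at 0.075 for salt in S3 and Os03g0645900 at -0.066 between lines under salt, all log2. With library totals the log2 fold change for salt was -0.23 in S13 and -0.074 in S3 for Os12g0617400 and -0.51 and -0.44 for ABA8ox1, and Os03g0645900 was at -0.027 between lines under salt. That last value was -0.050 with limma-voom, -0.010 with the minimum of 5 CPM and -0.12 without the second salt library of both lines. The difference of responses of ABA8ox2 was -0.070 with limma-voom and -0.30 without those salt libraries, where that of ABA8ox1 was 0.0052.

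Members that changed sign when 1 library was left out had these log2 ranges. For salt they were -0.13 to 0.74 for Os12g0617400 and -0.57 to 0.090 for ABA8ox3 in S13, and -0.37 to 0.19 for ZEP and -0.081 to 0.83 for ABA8ox1 in S3. Between lines in controls they were -0.030 to 0.52 for ZEP, -0.80 to 0.11 for ABA8ox1 and -0.80 to 0.058 for ABA8ox2. Between lines under salt they were -0.13 to 0.25 for ZEP, -0.070 to 0.48 for Os02g0704000, -0.48 to 0.36 for Os03g0645900, -1.26 to 0.60 for Os07g0154100 and -0.97 to 0.039 for ABA8ox2. For the difference of responses they were -0.45 to 0.11 for ZEP, -0.76 to 0.12 for Os12g0617400, -0.60 to 0.32 for ABA8ox1 and -0.54 to 0.52 for ABA8ox2.

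Over all genes, 7627 were called for salt in S13 (3613 higher and 4014 lower) and 9237 in S3 (4059 and 5178). Leaving out 1 library gave 1503 to 7748 and 3224 to 11131, and library totals gave 1375 higher and 10004 lower in S13 and 1636 and 10407 in S3. Between lines 401 genes in controls and 1005 under salt were called by edgeR, 846 and 1893 by DESeq2, 246 and 634 with the minimum of 5 CPM, and 230 to 506 and 530 to 1978 with 1 library left out. Groups of 2 and 3 libraries limit these tests, and depth limits the values of Os02g0704000, which had 3 to 58 counts a library.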
